A study of Mus musculus with 12 samples.

Results

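The genes described here are the 10 members of the transforming growth factor beta (TGF-β) pathway named Tgfb1, Tgfb2, Tgfb3, Tgfbr1, Tgfbr2, Tgfbr3, Smad3, Smad7, Skil and Ski. They were chosen by name, with earlier results of these data known, and each name stood on 1 of the 21936 genes of the deposited table. They were followed in RNA-seq of whole mouse liver in 3 groups of 3 libraries. All groups were C57BL/6 mice (C57BL/6 J in the study's methods), given as male and 6 weeks of age on purchase, in which carbon tetrachloride (CCl4), a hepatotoxin, had been given by intraperitoneal injection at 1 mL/kg 2 times per week for 8 weeks. Livers of the Liver Fibrosis Group (LFG) were taken when the CCl4 course ended. Mice of the regression group (REG) were next given 200 µL of PBS, and those of the hADMSCs-Exo group 250 µg of exosomes from human adipose-derived mesenchymal stem cells in the same volume, through the tail vein 2 times per week over 4 weeks. LFG was therefore collected 4 weeks earlier than REG and hADMSCs-Exo, and the exosomes came from another species. The series also holds a group given the cells themselves, which was not analysed here, and no library of healthy liver was analysed here. The columns of the deposited table headed MSC_E were read as the hADMSCs-Exo libraries, since that group's labels alone hold both parts of the heading. The sources used here do not spell the heading out, and every hADMSCs-Exo value rests on this reading.

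TGF-β ligands are secreted in a latent complex and, once released, join a type II receptor (Tgfbr2) to a type I receptor (Tgfbr1), while Tgfbr3 (betaglycan) presents ligand. The type I receptor phosphorylates Smad3, which enters the nucleus with Smad4 and switches on target genes, among them the pathway's own brakes. Smad7 blocks the activated receptor, and Ski and Skil (SnoN) repress Smad-driven transcription. In the liver, TGF-β is best known as the signal that turns hepatic stellate cells into collagen-producing myofibroblasts.

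The libraries held 13837445 to 19840917 counts each, with 13924 to 15248 genes detected. All 10 hepatocyte markers examined (albumin among them) were counted in every library and summed to between 99337 and 192140 CPM (counts scaled to each library's size), so the livers carried hepatocyte genes throughout. The library LFG 3 stood apart from LFG 1 and LFG 2. The summed CPM of 12 macrophage and Kupffer cell markers was 201 in it, against 2100 and 1642 in LFG 1 and LFG 2. The sum of 12 stellate cell markers was 158 in LFG 3, against 585 and 547. Genes of scar tissue went against its label as fibrotic liver: Col3a1, a fibrillar collagen, stood at 7.69 CPM in LFG 3 and at 550.2 and 328 in LFG 1 and LFG 2, and LFG 3 lay below every REG library for it. The fitted log2 fold changes of the members against LFG are therefore given with and without LFG 3. Some values of other genes, and the ratio of Skil to Ski, are given in only 1 of these ways. In bulk liver, fewer cells of a type and less RNA per cell cannot be told apart. Nothing in the labels says that replicates were separate animals, so p-values measure the spread between these samples. A call required both an adjusted p under 0.05 and a log2 fold change of 1 or more in size (edgeR's quasi-likelihood test, two-sided, with Benjamini-Hochberg adjustment over all genes tested). CPM is given after TMM scaling, errors of log2 fold changes are standard errors (SE), and intervals are 95% intervals.

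The comparison of hADMSCs-Exo with REG asks what the exosomes added to 4 weeks of recovery. The repressors Skil and Ski were higher in every hADMSCs-Exo library than in any REG library, and the ligand Tgfb3 was lower in every one. None of the 10 members was called, where 0.00811% of the 12337 genes tested were (1 gene, the cytochrome P450 gene Cyp2c55, lower in hADMSCs-Exo and named because it was the only call). Of the members, 1 (Skil) was higher at an unadjusted p under 0.05, against 5.34% of all genes. The counts of members with groups that did not overlap were 2 higher and 1 lower, beside 8.07% and 7.47% of all genes. The median log2 fold change of the members was 0.05, beside 0.01 over all genes tested.

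The comparisons with LFG ask how recovery with and without exosomes differed from the fibrotic liver at its start. They share the same LFG libraries, so their values are set side by side and not counted as separate evidence. All 10 members had fitted levels below LFG in both REG and hADMSCs-Exo, where 55.9% of the 12517 genes and 56.9% of the 12489 genes tested did. No member was called against LFG in either group, and neither was any other gene (0% in REG and 0% in hADMSCs-Exo). Without an adjustment, 1417 genes in REG and 747 in hADMSCs-Exo had p under 0.05, and DESeq2 called 1 member, Skil, in REG (all genes 1.92%) and 0 members in hADMSCs-Exo (all genes 0.48%). Voom with quality weights called 2, Skil and Tgfb3, in REG (all genes 10.3%) and 0 in hADMSCs-Exo (all genes 0.00801%). At an unadjusted p under 0.05, 2 members were lower in REG (Skil and Tgfbr1; all genes 6.70%) and 1 was lower in hADMSCs-Exo (Tgfb3; all genes 3.68%). With replicate numbers taken as a block, the 1 member under that p in hADMSCs-Exo was Tgfbr1 (unadjusted p = 0.0467) and Tgfb3 had unadjusted p = 0.118 (edgeR). Skil and Smad3 were lower in every REG library than in any LFG library (all genes 10.1%), and 0 members were lower throughout in hADMSCs-Exo (all genes 5.95%). The members' median log2 fold change was -0.37 in REG and -0.51 in hADMSCs-Exo, beside -0.07 and -0.06 over all genes.

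Without LFG 3, the 10 members were again all lower than LFG in both groups, where 50.2% of all genes were in REG and 49.7% in hADMSCs-Exo. Then 3 members were called in REG (Skil, Tgfb3 and Tgfbr1), beside 10.7% of 12948 genes, and 2 in hADMSCs-Exo (Tgfb3 and Skil), beside 5.97% of 12955 genes. An unadjusted p under 0.05 was reached by 5 members lower in REG (all genes 19.1%) and by 7 lower in hADMSCs-Exo (all genes 15.7%). The groups did not overlap for 8 members in REG and for 8 in hADMSCs-Exo, beside 29.8% and 25.7% of all genes that were lower throughout. The medians of the members were -0.61 and -0.82, against -0.01 and 0.00 over all genes. Marker lists of other cells had medians of like size in the same fits, REG first and hADMSCs-Exo second, at -0.61 and -1.21 for stellate cells (9 and 12 of 12 markers lower), -0.78 and -0.64 for macrophages, and -1.03 and -1.22 for cholangiocytes. Those of sinusoidal endothelium were 0.49 and -0.31, of lymphocytes 0.30 and 0.66, and of hepatocytes 0.31 and 0.21. The part of these cells in the members' levels was not tested.

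**Figure D1:**
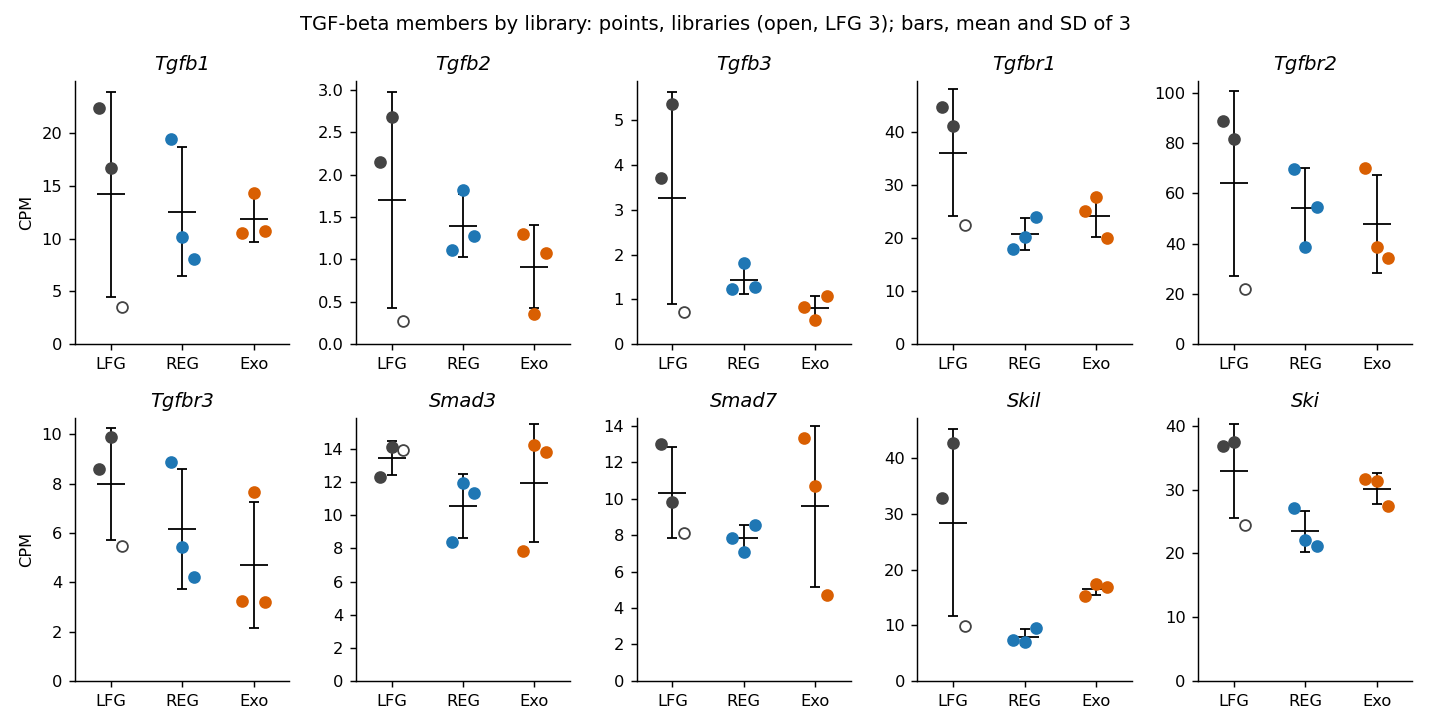
CPM of each member (y axis, from 0) in the 9 libraries by group (x axis; Exo, hADMSCs-Exo). Points are libraries, the open point is LFG 3, and bars show the mean and SD of 3; the 3 hADMSCs-Exo points of Skil sit at 15.2 to 17.4 CPM, above the 3 of REG at 6.92 to 9.45, and LFG 3 lies below LFG 1 and LFG 2 for every member but Smad3.

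Tgfb1 (ENSMUSG00000002603, chr7:25687002-25705077, plus strand, GRCm38) was the main ligand by FPKM, a level per length, and made up 61.8% to 92.7% of the summed FPKM of the 3 ligands in each library. The 3 ligands end in a cysteine-rich domain that forms the active growth factor, and the last 120 coding bases of each are shown, since reads are assigned to one ligand or another through such differences. Each stretch lies in 1 coding exon and is read 5′ to 3′ from the GENCODE M21 transcripts (GRCm38), and capitals mark the 78 bases shared by all 3.
Tgfb1 (chr7:25704820-25704939, plus strand): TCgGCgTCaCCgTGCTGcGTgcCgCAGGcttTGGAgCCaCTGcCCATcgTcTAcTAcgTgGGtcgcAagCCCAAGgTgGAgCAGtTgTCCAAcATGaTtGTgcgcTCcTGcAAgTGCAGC
Tgfb2 (chr1:186625451-186625570, minus strand): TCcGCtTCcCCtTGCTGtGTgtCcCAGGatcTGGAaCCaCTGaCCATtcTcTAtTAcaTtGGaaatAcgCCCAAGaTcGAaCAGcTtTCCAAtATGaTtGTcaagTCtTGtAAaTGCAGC
Tgfb3 (chr12:86057783-86057902, minus strand): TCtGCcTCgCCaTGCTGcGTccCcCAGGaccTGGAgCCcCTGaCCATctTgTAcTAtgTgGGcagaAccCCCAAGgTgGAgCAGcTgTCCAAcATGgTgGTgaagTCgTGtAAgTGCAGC
In these bases Tgfb1 and Tgfb3 shared 77.5%, Tgfb2 and Tgfb3 74.2%, and Tgfb1 and Tgfb2 71.7%. Over the whole coding sequences the longest identical run was 15 bases, for Tgfb1 with Tgfb3 and for Tgfb2 with Tgfb3, and 10 bases for Tgfb1 with Tgfb2.

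Tgfb1 stood at 22.4, 16.7 and 3.49 CPM in LFG, at 19.5, 10.1 and 8.07 in REG, and at 10.5, 14.3 and 10.7 in hADMSCs-Exo. The groups overlapped, with LFG 3 the lowest of the 9 and LFG 1 the highest. The log2 fold change of hADMSCs-Exo against REG was -0.09 ± 0.33 (SE; interval -0.85 to 0.67), and it did not pass the test. Against LFG it was -0.28 ± 0.60 in hADMSCs-Exo and -0.17 ± 0.65 in REG. Without LFG 3 these were -0.71 ± 0.23 (adjusted p = 0.0967) and -0.60 ± 0.36 (adjusted p = 0.263, edgeR's quasi-likelihood test). All hADMSCs-Exo libraries then lay below both LFG libraries, whereas REG 1 lay between them.

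Tgfb2 (ENSMUSG00000039239, chr1:186622792-186705989, minus strand) was the member with the lowest median FPKM, with 3 to 51 counts per library. Its CPM was 2.15, 2.68 and 0.268 in LFG, 1.11, 1.81 and 1.27 in REG, and 1.30, 0.362 and 1.07 in hADMSCs-Exo. The 3 groups overlapped, and the lowest value, in LFG 3, rested on 3 counts. Between hADMSCs-Exo and REG the log2 fold change was -0.61 ± 0.50 (interval -1.76 to 0.53), and it did not pass the test. Against LFG it was -0.93 ± 0.85 in hADMSCs-Exo and -0.29 ± 0.73 in REG, and -1.38 ± 0.55 and -0.73 ± 0.40 without LFG 3, with adjusted p = 0.154 and 0.217 (edgeR). Of its 5791 exon bases in GENCODE M21, 124 (2.14%) also lie in exons of the antisense gene Gm29491, and the use of strand in counting was not given.

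Tgfb1 and Tgfb2, the most and the least abundant ligand, are also the ligands whose promoters were in the RefSeq table used here (6 of the 10 members were). The 250 bases before each start (GRCm38.p6, RefSeq) are shown to set their composition beside their levels, with any TATAAA box on either strand in capitals.
Tgfb1 promoter (chr7:25686752-25687001, plus strand): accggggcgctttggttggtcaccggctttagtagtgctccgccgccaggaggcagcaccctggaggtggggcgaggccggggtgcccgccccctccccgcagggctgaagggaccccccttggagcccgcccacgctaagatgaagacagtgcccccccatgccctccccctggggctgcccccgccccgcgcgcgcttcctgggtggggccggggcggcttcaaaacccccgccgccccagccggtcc
Tgfb2 promoter (chr1:186705990-186706239, minus strand): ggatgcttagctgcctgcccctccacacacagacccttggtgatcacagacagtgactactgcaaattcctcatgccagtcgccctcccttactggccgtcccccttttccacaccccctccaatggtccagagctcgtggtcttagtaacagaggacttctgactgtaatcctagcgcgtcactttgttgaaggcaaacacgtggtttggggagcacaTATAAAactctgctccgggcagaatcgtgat
The Tgfb1 stretch was 75.2% G and C, more than in 96.1% of the 32851 promoters of the table, whose median was 52.4%. That of Tgfb2 was 53.6%. Tgfb2 held 1 match to TATAAA and Tgfb1 held 0 matches, and 12.4% of all promoters held it in a window of this length. These are descriptions of letters and carry no measurement of a factor.

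Tgfb3 (ENSMUSG00000021253, chr12:86056745-86079041, minus strand), a ligand of mesenchymal cells and connective tissue, had 8 to 96 counts per library. Its CPM was 3.71, 5.37 and 0.716 in LFG, 1.23, 1.81 and 1.27 in REG, and 0.829, 0.542 and 1.07 in hADMSCs-Exo. All hADMSCs-Exo libraries lay below all REG libraries, which lay below LFG 1 and LFG 2, while LFG 3 lay among the hADMSCs-Exo libraries. Its log2 fold change in hADMSCs-Exo against REG was -0.82 ± 0.40 (interval -1.74 to 0.11, adjusted p = 0.536, edgeR). Against LFG it was -2.02 ± 0.75 in hADMSCs-Exo (adjusted p = 0.805) and -1.17 ± 0.68 in REG (adjusted p = 0.547), neither of which passed edgeR's test. Without LFG 3, Tgfb3 fell 5.48-fold in hADMSCs-Exo (log2 -2.45 ± 0.42, adjusted p = 0.0263) and 3.03-fold in REG (log2 -1.60 ± 0.36, adjusted p = 0.0298, edgeR). The coding gene Ttll5 covers the other strand at this locus and shares 0 of the 3383 exon bases of Tgfb3. The genes Gm37804 and Gm48008 on that strand share 163 and 257 of them.

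Markers of hepatic stellate cells had lower values beside it. Of 12 markers, 12 had a lower fitted level in hADMSCs-Exo than in REG (all genes 48.9%), with a median log2 fold change of -0.83, and 3 of them (Pdgfrb, Des and Colec11) had an unadjusted p under 0.05, beside 4.69% of all genes that were lower. Their summed CPM ran from 212 to 343 in hADMSCs-Exo, from 269 to 533 in REG and from 158 to 585 in LFG. None of the 12 was at 0 in every library, and Ngfr was at 0 in 1 library. Of 10 markers of sinusoidal endothelium, 9 also had a lower fitted level in hADMSCs-Exo than in REG, with a median log2 fold change of -0.67. The part of either cell type in the level of Tgfb3 was not tested.

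By the likeness of pattern over 9 libraries, measured as the root mean square difference in log2 CPM from each gene's own mean among 12760 genes, the genes nearest Tgfb1 were Tor4a (0.12), Lmo2 (0.12) and Agtrap (0.13), where Tgfb1's own deviation from its mean was 0.75. Nearest Tgfb2 (own deviation 0.90) were Kcne3 (0.30), Numbl (0.30) and Tcaf2 (0.32). Nearest Tgfb3 (own deviation 0.95) were Aebp1 (0.28), which encodes a secreted collagen-binding protein, Gpc3 (0.30), a glypican, and Fxyd6 (0.30). These nearest genes differed between the ligands. The measure took in LFG 3, where Tgfb2 had 3 counts and Tgfb3 had 8. The nearest genes without LFG 3 were not looked up.

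Among the receptors, Tgfbr1 was the one called without LFG 3, and Tgfbr2 had the highest FPKM in 8 of 9 libraries. Tgfbr1 (ENSMUSG00000007613, chr4:47353222-47414931, plus strand), the signalling kinase, stood at 44.7, 41.2 and 22.4 CPM in LFG, at 17.9, 20.2 and 23.9 in REG, and at 25.0, 27.7 and 19.9 in hADMSCs-Exo. LFG 1 and LFG 2 were above all other libraries, and REG and hADMSCs-Exo overlapped. Its log2 fold change in REG against LFG was -0.79 ± 0.28 (adjusted p = 0.396, edgeR). Without LFG 3, Tgfbr1 fell 2.01-fold in REG (log2 -1.01 ± 0.17, adjusted p = 0.0166), just inside the fold threshold. In hADMSCs-Exo the log2 fold change against LFG was -0.59 ± 0.30, and -0.82 ± 0.18 without LFG 3, with an adjusted p = 0.0437 (edgeR) that was under the threshold but a fold that was not past its limit. Between hADMSCs-Exo and REG it was 0.22 ± 0.18 (interval -0.18 to 0.63).

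Tgfbr2 (ENSMUSG00000032440, chr9:116084293-116175360, minus strand), which binds ligand first, stood at 88.7, 81.5 and 21.8 CPM in LFG, at 69.8, 38.6 and 54.6 in REG, and at 70.1, 38.6 and 34.5 in hADMSCs-Exo. LFG 1 and LFG 2 were again the highest, LFG 3 was the lowest, and REG and hADMSCs-Exo overlapped. Between hADMSCs-Exo and REG it differed by -0.19 ± 0.31 on the log2 scale (interval -0.90 to 0.52). Against LFG without LFG 3 it was -0.82 ± 0.30 in hADMSCs-Exo (adjusted p = 0.126) and -0.61 ± 0.24 in REG (adjusted p = 0.111, edgeR), and with LFG 3 it was -0.44 ± 0.54 and -0.22 ± 0.51. By FPKM, a level per length, Tgfbr2 stood 1.11 to 3.11 times as high as Tgfbr1 in 8 libraries and 0.776 times as high in LFG 3.

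Tgfbr3 (ENSMUSG00000029287, chr5:107106570-107289629, minus strand), the co-receptor betaglycan, stood at 8.60, 9.90 and 5.46 CPM in LFG, at 8.87, 5.44 and 4.19 in REG, and at 3.26, 7.65 and 3.21 in hADMSCs-Exo. All 3 groups overlapped. The log2 fold change was -0.39 ± 0.42 between hADMSCs-Exo and REG (interval -1.37 to 0.58). Against LFG it was -0.77 ± 0.45 in hADMSCs-Exo and -0.36 ± 0.38 in REG, and without LFG 3 it was -0.96 ± 0.40 (adjusted p = 0.168) and -0.54 ± 0.33 (adjusted p = 0.27, edgeR). All hADMSCs-Exo libraries were below LFG 1 and LFG 2.

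**Figure D2:**
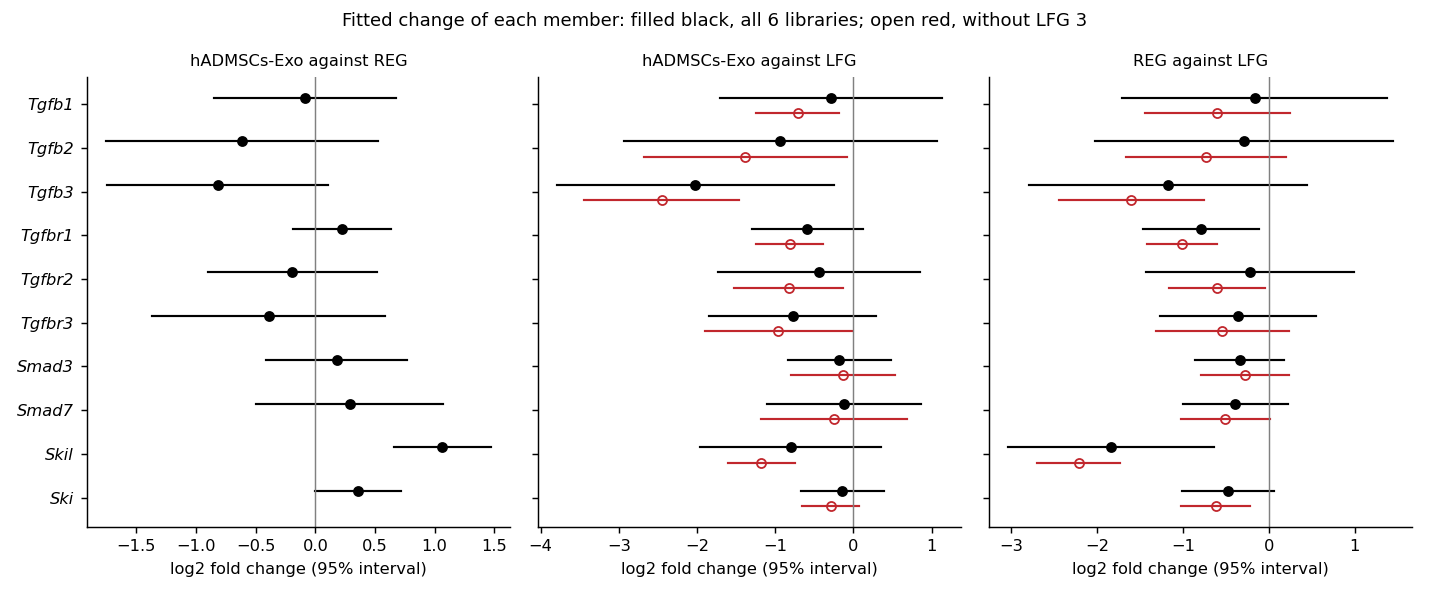
Fitted log2 fold change of each member (x axis, with its 95% interval as a line) in the 3 comparisons; filled black points use all 6 libraries and open red points leave out LFG 3. Skil is the member whose interval lies above 0 in hADMSCs-Exo against REG (0.66 to 1.47), and all points lie below 0 in both comparisons with LFG.

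Smad3 (ENSMUSG00000032402, chr9:63646767-63757994, minus strand), the receptor-activated transducer, was the member for which LFG 3 was not the lowest LFG library. It stood at 12.3, 14.1 and 14.0 CPM in LFG, at 8.38, 12.0 and 11.4 in REG, and at 7.88, 14.2 and 13.8 in hADMSCs-Exo. Every REG library lay below every LFG library, though the gap between REG 2 and LFG 1 was small, and hADMSCs-Exo overlapped both groups. The log2 fold change in REG against LFG was -0.34 ± 0.22 (interval -0.86 to 0.18, adjusted p = 0.582, edgeR) and -0.28 ± 0.22 without LFG 3. In hADMSCs-Exo it was -0.18 ± 0.28 against LFG, -0.13 ± 0.28 without LFG 3, and 0.18 ± 0.26 against REG (interval -0.41 to 0.77).

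Among the 3 feedback members (Skil, Ski and Smad7), Skil was the one with an unadjusted p under 0.05 in edgeR's fits of the 6 libraries compared. Skil (ENSMUSG00000027660, chr3:31095058-31122577, plus strand), which encodes the Smad corepressor SnoN, stood at 32.8, 42.8 and 9.84 CPM in LFG, at 7.27, 6.92 and 9.45 in REG, and at 15.2, 17.4 and 17.0 in hADMSCs-Exo. REG was the lowest group, hADMSCs-Exo was above it in every library with a narrow spread (16.5 ± 1.16 CPM against 7.88 ± 1.37, SD of 3), and LFG 1 and LFG 2 were above both. LFG 3 lay just above the highest REG library. Skil was 2.09-fold higher in hADMSCs-Exo than in REG (log2 1.07 ± 0.18, interval 0.66 to 1.47), with an unadjusted p = 0.000299 and an adjusted p = 0.353 by edgeR, which did not pass. DESeq2 called it, with an adjusted p = 0.00146, as it did 0.543% of all genes.

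Against LFG, Skil was 3.57-fold lower in REG (log2 -1.84 ± 0.50, unadjusted p = 0.00847, adjusted p = 0.332, edgeR) and had a log2 fold change of -0.80 ± 0.49 in hADMSCs-Exo (adjusted p = 0.833). Without LFG 3 it fell 4.64-fold in REG (log2 -2.21 ± 0.21, adjusted p = 0.0104) and 2.26-fold in hADMSCs-Exo (log2 -1.18 ± 0.18, adjusted p = 0.0226, edgeR). DESeq2 with all libraries called Skil in REG, with an adjusted p = 0.0313.

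Ski (ENSMUSG00000029050, chr4:155154075-155222592, minus strand), the founding member of the same corepressor family, differed less. It stood at 36.9, 37.5 and 24.5 CPM in LFG, at 27.1, 22.1 and 21.1 in REG, and at 31.7, 31.3 and 27.4 in hADMSCs-Exo. Each hADMSCs-Exo library was above each REG library, by little in the nearest pair, and LFG 1 and LFG 2 were the highest. The log2 fold change of hADMSCs-Exo against REG was 0.36 ± 0.16 (interval -0.00171 to 0.72, adjusted p = 0.498, edgeR). In REG against LFG it was -0.48 ± 0.23 (adjusted p = 0.479), and without LFG 3 -0.62 ± 0.17 with an adjusted p = 0.0467 (edgeR), short of the fold limit. In hADMSCs-Exo against LFG it was -0.14 ± 0.22, and -0.29 ± 0.16 without LFG 3.

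Skil and Ski are paralogs, so their most alike 120 coding bases are shown, found by sliding one coding sequence along the other in whole codons. Capitals mark the 88 bases (73.3%) that are the same in both.
Skil (chr3:31097769-31097888, plus strand): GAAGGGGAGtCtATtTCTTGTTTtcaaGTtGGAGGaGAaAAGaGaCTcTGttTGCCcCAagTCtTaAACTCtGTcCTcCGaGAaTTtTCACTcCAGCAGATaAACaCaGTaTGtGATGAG
Ski (chr4:155222086-155222205, minus strand): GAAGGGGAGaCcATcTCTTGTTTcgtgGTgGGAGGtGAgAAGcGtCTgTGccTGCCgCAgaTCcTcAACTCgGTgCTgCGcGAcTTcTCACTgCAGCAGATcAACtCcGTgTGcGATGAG
The longest identical run of the whole coding sequences was 13 bases. In FPKM, the ratio of Skil to Ski was 0.510, 0.654 and 0.230 in LFG, 0.154, 0.179 and 0.257 in REG, and 0.275, 0.319 and 0.355 in hADMSCs-Exo. The geometric mean was 0.315 in hADMSCs-Exo and 0.192 in REG, and the groups did not overlap (two-sided exact permutation p = 0.1, the smallest that 3 against 3 libraries can give). In LFG, with LFG 3 included, the geometric mean was 0.425. The log2 difference of REG from LFG was -1.15 (exact permutation p = 0.2). That of hADMSCs-Exo from LFG was -0.43 (exact permutation p = 0.4). LFG 3 had the lowest LFG ratio (0.230), within the range of REG. The other LFG libraries, at 0.510 and 0.654, lay above every REG and hADMSCs-Exo library. Including LFG 3 therefore made both differences smaller in size, and their values without it are not given here. Adjusted over these 3 comparisons, the exact p-values were 0.3 for hADMSCs-Exo against REG, 0.3 for REG against LFG and 0.4 for hADMSCs-Exo against LFG. With a smallest possible p of 0.1, no comparison could pass the p threshold used here. These p-values therefore cannot decide whether the ratio differed between groups.

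Smad7 (ENSMUSG00000025880, chr18:75367529-75395935, plus strand), the inhibitory Smad, stood at 13.0, 9.84 and 8.14 CPM in LFG, at 7.82, 7.09 and 8.55 in REG, and at 13.3, 10.7 and 4.73 in hADMSCs-Exo. The hADMSCs-Exo libraries spanned the highest and the lowest of the 9 values, and REG was the group with the least spread. Smad7 differed between hADMSCs-Exo and REG by a log2 fold change of 0.29 ± 0.34 (interval -0.50 to 1.07, adjusted p = 0.798, edgeR). In REG against LFG it was -0.39 ± 0.26, and -0.51 ± 0.22 without LFG 3. In hADMSCs-Exo against LFG it was -0.12 ± 0.41, and -0.25 ± 0.40 without LFG 3.

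Ordered by median FPKM over the 9 libraries, the members ran from Tgfbr2 (6.33) through Ski (4.75), Tgfbr1 (3.48), Tgfb1 (2.13), Smad3 (2.03), Smad7 (1.79), Skil (1.61), Tgfbr3 (0.767) and Tgfb3 (0.355) to Tgfb2 (0.209). The ranges of neighbours in this order overlapped throughout over the 9 libraries, though Tgfb3 was above Tgfb2 in 9 of 9 libraries and the first of each other pair was above the next in 5 to 8 of 9. Skil had a median FPKM, which carries no TMM scaling, of 4.65 in LFG, 0.731 in REG and 1.63 in hADMSCs-Exo.

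**Figure D3:**
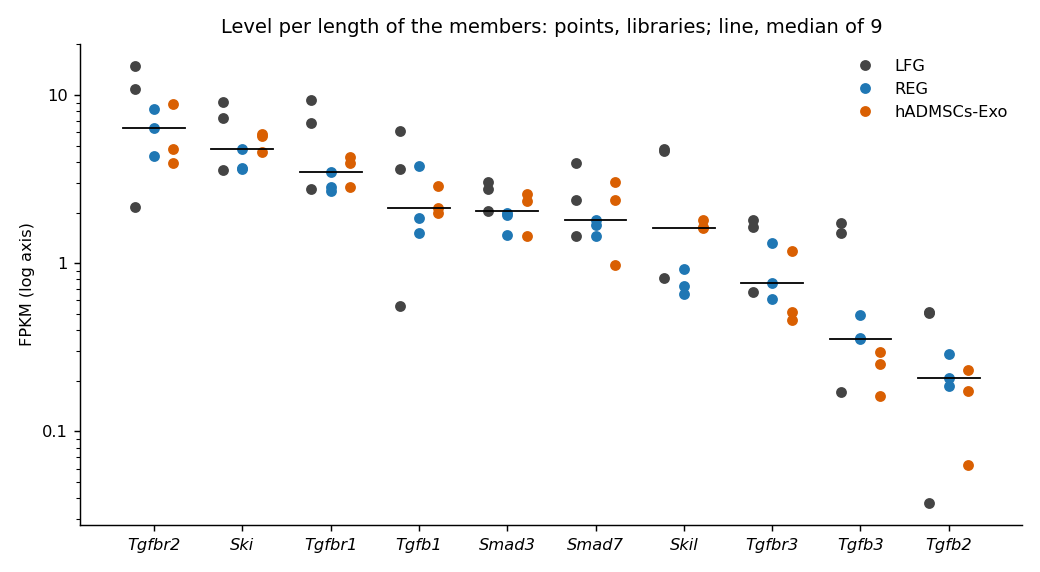
FPKM (y axis, log scale) of the members in each library, in order of the median of 9 libraries (black line); colours are groups. The receptor Tgfbr2 has the highest median (6.33) and the ligand Tgfb2 the lowest (0.209), and the lowest points of Tgfb1, Tgfbr2 and Tgfb2 belong to LFG 3.

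Other genes of the pathway were taken from lists by role. Among the genes that store or release latent TGF-β, 10 of 12 were tested between hADMSCs-Exo and REG, and 2 were lower at an unadjusted p under 0.05 (all genes 4.69%), with a median log2 fold change of -0.31. Fbn1, the microfibril protein that anchors latent complexes, stood at 1.36, 2.47 and 1.32 CPM in hADMSCs-Exo and at 6.04, 4.73 and 3.40 in REG (log2 -1.45 ± 0.36, adjusted p = 0.38, edgeR). Ltbp2 (log2 -0.87 ± 0.38), a latent TGF-β binding protein family member, and Itgav (log2 0.35 ± 0.17), an integrin subunit that releases the ligand, followed. Against LFG no gene of the list was called, and the medians were -1.03 in REG and -1.09 in hADMSCs-Exo. Without LFG 3, where 6.94% of all genes were called lower in REG and 4.5% in hADMSCs-Exo, 6 of 11 were called lower in REG, among them Thbs1 (log2 -3.23 ± 0.32), an activator of latent TGF-β, Itgav (-1.22 ± 0.20) and Ltbp3 (-1.60 ± 0.35), and 5 of 11 in hADMSCs-Exo, among them Fbn1 (-3.53 ± 0.36), Thbs1 (-3.43 ± 0.46) and Ltbp3 (-2.24 ± 0.32).

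Of the co-receptors, pseudoreceptors and ligand-binding proteoglycans, all 8 were tested. The pseudoreceptor Bambi, a decoy that lacks the kinase, stood at 3.43, 3.19 and 2.71 CPM in hADMSCs-Exo and at 6.78, 5.77 and 4.73 in REG (log2 -0.89 ± 0.24, adjusted p = 0.407, edgeR), and the groups did not overlap. It was the single gene of the list with an unadjusted p under 0.05 there (all genes lower at that p, 4.69%), and the proteoglycans Dcn (log2 -0.92 ± 0.42) and Bgn (log2 -0.69 ± 0.32) came next. The list's median was -0.66. Against LFG the genes with the smallest p in hADMSCs-Exo were Fmod (log2 -2.35 ± 0.82), Bambi (-0.69 ± 0.37) and Bgn (-1.44 ± 0.80), and in REG Fmod (-1.55 ± 0.74), Fkbp1a (-0.23 ± 0.18) and Eng (0.50 ± 0.45), none of them called. Without LFG 3, 2 were called lower in each group (all genes 4.5% in hADMSCs-Exo and 6.94% in REG), Fmod and Bgn in hADMSCs-Exo and Fmod among those in REG.

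The other Smads and their anchor Zfyve9 (SARA) had 0 of 7 genes called in any comparison, with or without LFG 3. Their medians were 0.12 in hADMSCs-Exo against REG, 0.10 against LFG and 0.08 in REG against LFG. Zfyve9 was higher in every hADMSCs-Exo library than in any LFG library (log2 0.52 ± 0.20, adjusted p = 0.805, edgeR). Smad6 (log2 -0.70 ± 0.36) and Smad4 (log2 0.31 ± 0.18) had the smallest p between hADMSCs-Exo and REG, and neither passed. The remaining genes with the smallest p were Smad1 (-0.15 ± 0.21) and Smad6 (-0.27 ± 0.48) in hADMSCs-Exo against LFG, and Smad6 (0.45 ± 0.36), Smad4 (-0.21 ± 0.18) and Zfyve9 (0.27 ± 0.24) in REG against LFG.

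Among 11 tested genes of other feedback steps, the ubiquitin ligase gene Nedd4l, whose product limits activated Smads and the receptor, was the 1 with an unadjusted p under 0.05 between hADMSCs-Exo and REG (all genes higher at that p, 5.34%). Nedd4l stood at 76.5, 68.8 and 30.7 CPM in LFG, at 20.8, 17.1 and 17.0 in REG, and at 43.4, 43.0 and 28.6 in hADMSCs-Exo. Every hADMSCs-Exo library was above every REG library, and every LFG library was above REG as well. The log2 fold change of hADMSCs-Exo against REG was 1.06 ± 0.20 (unadjusted p = 0.00064, adjusted p = 0.358, edgeR), and that of REG against LFG was -1.66 ± 0.35 (adjusted p = 0.265), or -1.94 ± 0.16 without LFG 3 (adjusted p = 0.0104). Rnf111 (Arkadia), which degrades Skil protein, had log2 0.35 ± 0.16 between hADMSCs-Exo and REG, and Smurf2 had 0.26 ± 0.16. Against LFG, the corepressor Tgif1 had -0.70 ± 0.22 in REG and -0.43 ± 0.20 in hADMSCs-Exo, Rnf111 had -0.42 ± 0.19 in REG, and Nedd4l had -0.63 ± 0.37 in hADMSCs-Exo. Pmepa1, a TGF-β-induced inhibitor, had log2 -1.56 ± 0.80 in hADMSCs-Exo, and fell without LFG 3 (log2 -2.05 ± 0.23, adjusted p = 0.0143, edgeR). The list did not move one way. Its medians were 0.07 in hADMSCs-Exo against REG, -0.09 in hADMSCs-Exo against LFG and -0.27 in REG against LFG, and 5 of 11 genes in hADMSCs-Exo and 4 of 11 in REG had fitted levels above LFG. Without LFG 3, 1 gene was called lower in hADMSCs-Exo (Pmepa1; all genes 4.5%) and 2 in REG (Nedd4l and Pmepa1; all genes 6.94%), and 0 were called higher. In REG without LFG 3, 3 genes were lower (all genes 19.1%) and 3 higher (all genes 18.2%) at an unadjusted p under 0.05. The 3 higher genes, named after their values were seen, were Smurf1 (log2 0.53 ± 0.18), a ubiquitin ligase gene, Ppm1a (0.45 ± 0.18), a phosphatase gene, and Ldlrad4 (0.72 ± 0.30).

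Of 21 tested genes that TGF-β is known to induce, 15 had a lower fitted level in hADMSCs-Exo than in REG (all genes 48.9%), with a median log2 fold change of -0.45 and 0 called. At an unadjusted p under 0.05, 8 were lower (all genes 4.69%) and 1 was higher (all genes 5.34%). Col3a1 stood at 10.5, 27.7 and 19.0 CPM in hADMSCs-Exo and at 59.5, 85.1 and 45.4 in REG, beside 550.2, 328 and 7.69 in LFG (hADMSCs-Exo against REG, log2 -1.73 ± 0.36, adjusted p = 0.358, edgeR). Acta2, the smooth muscle actin of myofibroblasts, stood at 0.355, 1.27 and 2.08 CPM in hADMSCs-Exo at 7.33, 11.1 and 4.04 in REG, and at 18.0, 16.2 and 0.626 in LFG (hADMSCs-Exo against REG, log2 -2.60 ± 0.58, adjusted p = 0.358). For both genes LFG 3 lay below every REG library and LFG 1 and LFG 2 above them. Junb, an immediate early transcription factor gene, had log2 -0.76 ± 0.17 with the same adjusted p, and for all 3 genes hADMSCs-Exo and REG did not overlap. In the same comparison all 12 stellate cell markers had lower fitted levels, with a median log2 fold change of -0.83. Whether the levels of the induced targets are linked to these markers or to the level of Skil was not tested.

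Against LFG, the medians of the induced targets were -1.36 in hADMSCs-Exo and -1.09 in REG, with 0 called. Among the genes with the smallest p were Junb (log2 -0.90 ± 0.22) and Col3a1 (-3.97 ± 1.28) in hADMSCs-Exo, and Cdkn1a (-3.52 ± 1.07), a cell cycle inhibitor, and Ccn2 (-1.45 ± 0.57), a matricellular growth factor, in REG. Without LFG 3, 9 of 22 were called lower in hADMSCs-Exo (all genes 4.5%) and 10 of 21 in REG (all genes 6.94%), and 0 were called higher. Col3a1 was then 22.8-fold lower in hADMSCs-Exo (log2 -4.51 ± 0.43, adjusted p = 0.00952) and Cdkn1a 16.6-fold lower in REG (log2 -4.06 ± 0.41, adjusted p = 0.0104, edgeR).

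**Figure D4:**
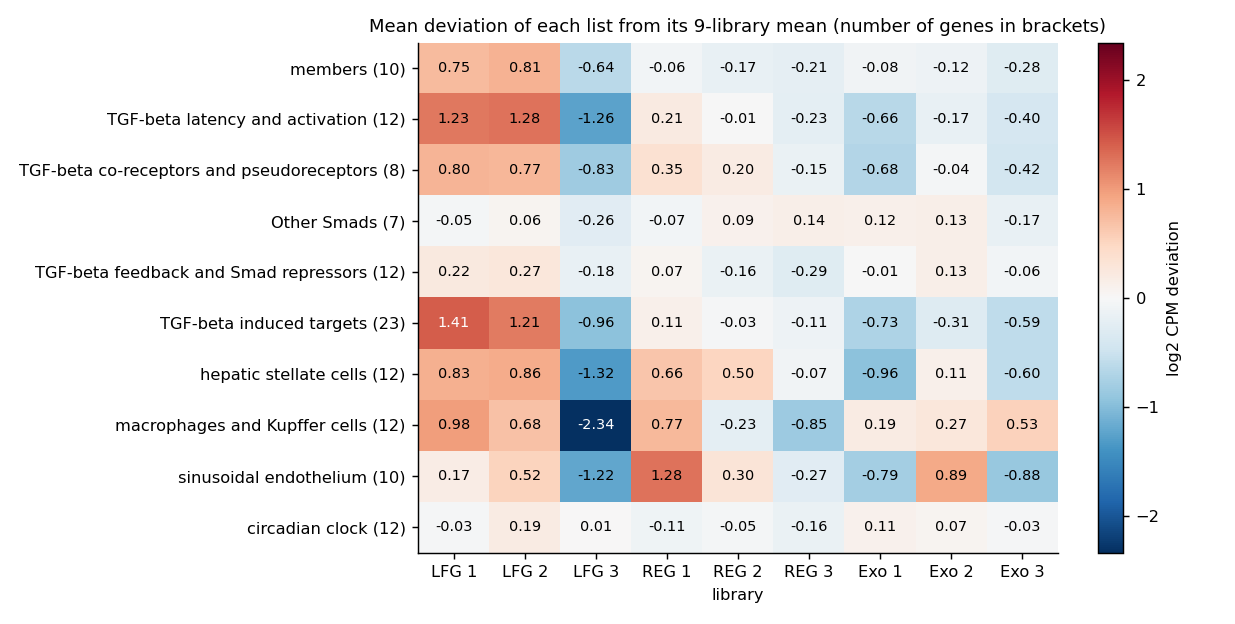
Mean deviation in log2 CPM (colour and number) of each list of genes (rows) from its own 9-library mean in each library (columns; Exo, hADMSCs-Exo). The members sit at 0.75 and 0.81 in LFG 1 and LFG 2 and at -0.64 in LFG 3, the library in which the macrophage list is at -2.34.

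The lists of macrophage, stellate, endothelial, cholangiocyte and lymphocyte markers were lowest, like the members, in LFG 3 of the LFG libraries. The hepatocyte list ran the other way, with mean deviations in log2 CPM of -0.77, -0.08 and 0.60 in LFG 1, LFG 2 and LFG 3. The macrophage list ran from 1160 to 1435 summed CPM in hADMSCs-Exo, from 653 to 1907 in REG and from 201 to 2100 in LFG, with 12 of 12 markers tested and none at 0 in any library. The median of this list between hADMSCs-Exo and REG was 0.13 on the log2 scale, and 1 marker was higher at an unadjusted p under 0.05 (all genes 5.34%). The 10 markers of sinusoidal endothelium had a median of -0.67 there, with 0 past that p, and summed to 123 to 340 CPM in hADMSCs-Exo, 165 to 456 in REG and 98.1 to 265 in LFG. The 8 cholangiocyte markers, of which 6 were tested, had a median of -0.25 between hADMSCs-Exo and REG, with 1 lower at that p (all genes 4.69%), and summed to 68.6 to 142 CPM in hADMSCs-Exo, 82.7 to 91.2 in REG and 66.1 to 206 in LFG (Cftr at 0 in 1 library and Sctr in 3). The 9 lymphocyte markers had a median of 0.52 there, with 8 of 9 at a higher fitted level and 1 higher at that p (all genes 5.34%). They summed to 47.8 to 64.5 CPM in hADMSCs-Exo, 29.1 to 50.5 in REG and 11.4 to 77.0 in LFG. The 10 hepatocyte markers had a median of 0.08 between hADMSCs-Exo and REG, with 2 higher at that p.

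Values of clock genes are given beside those of Skil and Nedd4l. Of 11 clock genes tested between hADMSCs-Exo and REG, 2 were higher and 2 lower at an unadjusted p under 0.05 (all genes 5.34% and 4.69%), with 0 called. Cry1, a clock repressor, stood at 9.48, 25.5 and 17.3 CPM in hADMSCs-Exo and at 4.25, 4.94 and 7.43 in REG (log2 1.65 ± 0.37, adjusted p = 0.358, edgeR). Dbp, a clock output factor gene, stood at 128, 44.2 and 62.6 CPM in hADMSCs-Exo, at 188, 172 and 138 in REG, and at 23.7, 21.8 and 149 in LFG. Its log2 fold change in hADMSCs-Exo against REG was -1.09 ± 0.35, and in REG against LFG without LFG 3 it was 2.91 ± 0.21 (adjusted p = 0.00855, edgeR). With LFG 3 in the fit, Dbp was not called in REG against LFG, where 0 of 12517 genes were. LFG 3 lay within the range of REG for Dbp and just above it for Skil. The time of day of collection was not in the sources used here, and its part in the level of Skil was not tested. The genes whose pattern over the 9 libraries was nearest that of Skil, looked up after its values were seen, were Btg3 (root mean square difference 0.24 in log2 CPM, where Skil's own deviation was 0.86), Tfrc (0.29), the transferrin receptor gene, and Btg2 (0.30).

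**Figure D5:**
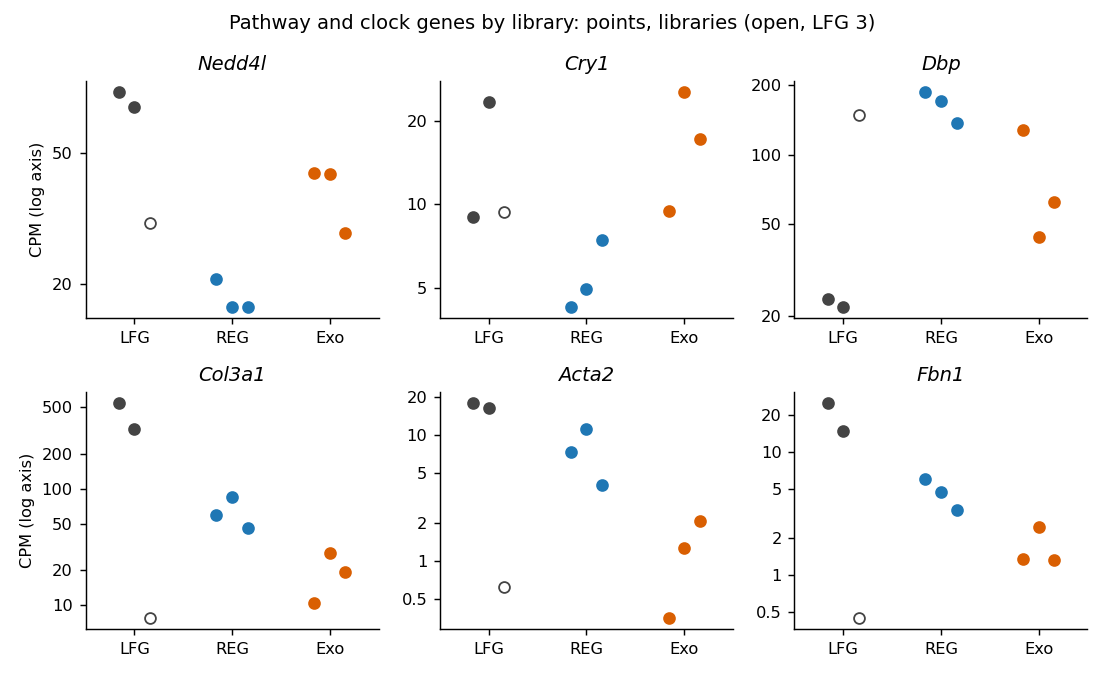
CPM (y axis, log scale) of 6 genes outside the 10 members in each library by group (x axis; Exo, hADMSCs-Exo; the open point is LFG 3). Nedd4l and Cry1 are higher in all hADMSCs-Exo libraries than in any REG library, while Dbp, Col3a1, Acta2 and Fbn1 are lower in all of them.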

How the data were processed

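Liver RNA-seq counts of 9 libraries (3 each of LFG, REG and hADMSCs-Exo) were analysed; the libraries of hADMSCs-treated mice were not analysed here. Libraries were made from Trizol-extracted RNA with the NEBNext Ultra kit, and the authors deposited unnormalized read counts for each gene. Beside the counts the authors deposited FPKM, which equals counts divided by gene length and library total to within a relative 9.19e-07. It was used mainly to compare levels between genes. Unlike CPM, FPKM carries no TMM scaling, and the TMM factors ran from 0.8083 in LFG 3 to 1.376 in LFG 1. FPKM of 1 gene in different libraries is therefore not on the scale of CPM. The table's MSC_E columns were read as the Exo samples, a reading that the sources used here do not spell out. The submitters' processing notes name cutadapt 1.15, HISAT2 2.0.5, HTSeq 0.9.1, DESeq 1.30.0 and GRCm38, without their roles, and the use of strand was not given in the sources used here. All 10 members have the same start and end in GENCODE M21.

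The quasi-likelihood test of edgeR 4.0.16 (R 4.3.3; glmQLFit and glmQLFTest, TMM, filterByExpr) was run on the counts of 6 libraries at a time, those of the groups being compared, and p-values adjusted over all genes tested. The SE is the log2 fold change divided by the square root of F. CPM was scaled by TMM factors over 9 libraries, and log2 CPM used a prior count of 2. Alternatives were edgeR's RLE factors, DESeq2 1.42.0, voom with quality weights in limma 3.58.1, other filters, all 9 libraries in one fit, a replicate block and leaving out each library. DESeq2 with LFG 3 left out was added after seeing the data. Replicate libraries differed by more than sampling noise. Same-numbered samples of hADMSCs-Exo and LFG correlated at 0.101, 0.308 and 0.18 in their deviations, and differently numbered ones at -0.176 to 0.033. Same-numbered samples of hADMSCs-Exo and REG correlated at 0.159, 0.00938 and 0.0336, and those of REG and LFG at 0.415, -0.202 and 0.305. No pairing was named in the sources used here. Apart from the replicate block, which was run as an alternative, the fits took the samples as unpaired.

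The members and gene lists were chosen with earlier results of these data known. Every member was named, and of each other pathway list the 3 genes with the smallest unadjusted p per comparison, apart from 1 gene that is not reported here. Of 24 induced targets listed, 23 were in the table. The lists share genes: Dcn stood among both the co-receptors and the stellate cell markers, and Ltbp2 among both the latency genes and the induced targets. Python 3.11.15, pandas 2.3.3, numpy and matplotlib 3.10.9 were used for tables and plots.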

Additional observations from a re-analysis of the deposited data

How the results depend on the processing

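No member was called in any comparison under edgeR's RLE factors, either filter on low counts, the fit of all 9 libraries or the replicate block, whose counts of called members were 0, 0 and 0. DESeq2 called 1 member (Skil) in hADMSCs-Exo against REG (all genes 0.543%), 1 (Skil) in REG against LFG (1.92%) and 0 in hADMSCs-Exo against LFG (0.48%). Voom with quality weights called 2 in REG against LFG (Skil and Tgfb3; all genes 10.3%). DESeq2 with LFG 3 left out called 3 in REG (all genes 13.9%) and 2 in hADMSCs-Exo (10.3%). Leaving out single libraries gave 0 to 0 calls in hADMSCs-Exo against REG, 0 to 2 in hADMSCs-Exo against LFG and 0 to 3 in REG against LFG, all from leaving out LFG 3. With an unadjusted p and no fold limit the counts were 1, 1 and 2, in the order hADMSCs-Exo against REG, against LFG, and REG against LFG. The median log2 fold change of the members in hADMSCs-Exo against REG was 0.20 with at least 10 counts required in every library, since Tgfb2 and Tgfb3 were then not tested.

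Of 404 values of single members under alternatives, 16 changed sign, in 9 of 30 results. Tgfb1 in hADMSCs-Exo against REG turned to 0.12 with voom and to 0.0046 with the replicate block. With the replicate block Tgfb1 was 0.0332 in hADMSCs-Exo and 0.0652 in REG against LFG, and Tgfb2 was 0.0126 in REG. The block changed no other direction and no call at the adjusted p. Leaving out 1 library gave ranges across 0 in hADMSCs-Exo against REG for Tgfb1 (-0.33 to 0.39), Tgfbr2 (-0.58 to 0.0434) and Smad7 (-0.024 to 0.61), in hADMSCs-Exo against LFG for Tgfb1 (-0.71 to 0.21), Smad3 (-0.31 to 0.0733) and Smad7 (-0.42 to 0.22), and in REG against LFG for Tgfb1 (-0.60 to 0.33), Tgfb2 (-0.73 to 0.17) and Tgfbr2 (-0.61 to 0.0928). The cause of these changes was not tested. Skil kept its direction under every alternative run, at 0.97 to 1.21 in hADMSCs-Exo against REG with adjusted p from 0.00146 to 1.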
